A study of Mus musculus with 4 samples.

Results

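The enzymes described here are glutathione transferases, aldehyde dehydrogenases, carbonyl reductases, aldo-keto reductases of family 1 and alcohol dehydrogenases, measured in mouse dorsal skin at postnatal day 16. Each of 4 Affymetrix arrays held RNA of a separately labelled animal, 2 of them wild type and 2 bitransgenic animals overexpressing deltaNp63alpha, a product of the Trp63 gene that basal keratinocytes make and that starts after the transactivation domain (n = 2 per group throughout). No litter, strain, promoter or inducing regime of the transgene is given in the labels, and they do not say what else the wild type animals carried. The members were chosen by gene symbol alone (Gsta, Gstm, Gstp, Gsto, Gstt, Gstk, Gstz, Mgst, Aldh, Cbr, Akr1 and Adh). The enzyme classes themselves were selected from the differences between bitransgenic and wild type arrays, which were known. The differences below are therefore a description of these genes, and neither their counts nor their adjusted p-values are independent support for the choice. The symbols found 107 of 45037 probe sets, of which 104 named 1 gene and stood for 68 genes, and 55 of these genes were bright enough to be tested among 13070.

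Glutathione transferases join the tripeptide glutathione to reactive, electron-poor compounds, and the soluble classes alpha, mu, pi, omega, theta, kappa and zeta differ in the compounds they accept. Aldehyde dehydrogenases oxidise aldehydes to acids, carbonyl reductases and aldo-keto reductases turn aldehydes, ketones and quinones into alcohols, and alcohol dehydrogenases oxidise alcohols, retinol among them. Skin uses these enzymes against lipid peroxidation products and foreign chemicals and in making retinoic acid, and several of their genes are known targets of the transcription factor NRF2.

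Of the 7 family genes that passed the test below, 6 had a promoter in the RefSeq table (build GRCm38.p6), which gives 250 bases before and 50 after each transcription start. Both strands were searched for the core of the antioxidant response element, at which NRF2 binds, spelled TGACNNNGC, and for a pair of p53-family half-site cores, at which p63 can bind. The pair was read as 2 copies of a C, 2 letters that are A or T, and a G, with 6 bases between the copies. The bases before the start are shown for the 3 genes that held a match, marked in capitals, and for Cbr3, which rose and held neither. They lie on the plus strand at chr3:107895604-107895853 for Gstm5, chr19:47854723-47854972 for Gsto1, chr3:138313036-138313285 for Adh6a and chr16:93682969-93683218 for Cbr3.
Gstm5: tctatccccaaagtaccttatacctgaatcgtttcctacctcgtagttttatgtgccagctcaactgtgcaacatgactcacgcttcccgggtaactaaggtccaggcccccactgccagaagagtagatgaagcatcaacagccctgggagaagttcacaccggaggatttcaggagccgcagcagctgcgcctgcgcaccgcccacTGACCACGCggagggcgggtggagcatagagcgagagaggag
Gsto1: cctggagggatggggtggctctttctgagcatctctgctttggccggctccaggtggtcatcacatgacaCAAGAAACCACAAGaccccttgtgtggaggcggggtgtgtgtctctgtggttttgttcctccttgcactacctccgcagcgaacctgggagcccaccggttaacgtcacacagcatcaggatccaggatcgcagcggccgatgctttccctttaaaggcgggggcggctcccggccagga
Adh6a: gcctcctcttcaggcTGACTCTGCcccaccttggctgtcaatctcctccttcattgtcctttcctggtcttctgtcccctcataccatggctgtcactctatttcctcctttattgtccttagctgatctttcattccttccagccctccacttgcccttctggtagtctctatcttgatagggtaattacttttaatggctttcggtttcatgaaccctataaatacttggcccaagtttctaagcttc
Cbr3: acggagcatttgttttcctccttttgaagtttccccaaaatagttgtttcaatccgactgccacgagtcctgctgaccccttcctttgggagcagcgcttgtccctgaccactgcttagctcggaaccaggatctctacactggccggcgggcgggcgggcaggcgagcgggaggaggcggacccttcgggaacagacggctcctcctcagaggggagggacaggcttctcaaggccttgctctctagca

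In Gstm5 the antioxidant response element core began at position -42 from the start, and in Adh6a, which fell, at position -235. The p53-family pair in Gsto1 began at position -180. Neither was found in the windows of Cbr3, Adh7 and Akr1c14. Of all 32851 promoters in the table, 12.4% held the antioxidant response element core and 7.22% the p53-family pair. Among the 55 promoters of the 46 tested family genes in the table the shares were 12.7% (7 promoters, those of Adh6a, Akr1cl, Aldh1a2, Aldh9a1, Gstm5, Gstm7 and Mgst1) and 7.27% (4 promoters, those of Aldh1a1, Aldh3a2, Cbr2 and Gsto1). A match is a string of letters in this window and says nothing of binding, and its absence says nothing of sites elsewhere.

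Of 4 probe sets of Trp63, the gene of the transgene, 2 were higher in bitransgenic skin, 28.9-fold (signal 206 and 838 against 10325 and 15247) and 23.1-fold (161 and 473 against 4644 and 9920), and the other 2 had log2 differences of -0.037 and -0.33. The median signal of the arrays lay between 97.9 and 113.1, and their correlation over 27022 probe sets was 0.918 in wild type, 0.949 in bitransgenic skin and 0.869 to 0.920 across genotypes. Each genotype had 1 array with high Y-linked Eif2s3y and 1 with high Xist. Basal keratinocyte markers were present, with a summed signal of 57747 and 66779 in the wild type arrays against 53879 and 80911 in the bitransgenic arrays. Markers of some other skin cell types differed with genotype. Those of endothelium (median log2 difference 0.0077, 3 positive and 3 negative) and T cells (-0.081, 2 and 2) went both ways. All 9 hair shaft and matrix markers were lower in both bitransgenic arrays (summed signal 57438 and 102938 against 1057 and 4602), as were all 8 of the inner root sheath (116033 and 203156 against 2775 and 21277), all 9 of skeletal muscle (207767 and 83385 against 20085 and 24432), all 7 of dermal fat (80885 and 69105 against 32753 and 46204), all 6 of fibroblasts (130752 and 114607 against 59197 and 77343) and all 4 of Schwann cells. Of all 13070 genes, 24.9% were lower in both bitransgenic arrays. Called lower were 6 hair shaft and matrix, 1 inner root sheath and 6 skeletal muscle markers, where 1.58% of all genes were. No marker of fat, fibroblasts or Schwann cells was called. No list was at 0 in any array. By the smallest p in each list, the log2 difference was -4.66 for Krt81 of the hair shaft, -6.35 for Krt72 of the inner root sheath, -5.29 for Myh4 of muscle and 2.13 for Flg, a marker of suprabasal keratinocytes (adjusted p = 0.00927, 0.0193, 0.0323 and 0.0156 in limma's fit). Flg does not stand for its list, in which 3 of the 7 suprabasal markers had positive and 4 negative differences, with a median of -0.27. Leaving out 1 array at a time gave -5.30 to -4.02 for Krt81, -7.67 to -5.03 for Krt72 and -6.47 to -4.11 for Myh4, each range spanned by the bitransgenic arrays. The call of Myh4 was lost with no filter (0.0509) or no intensity trend (0.0552). The call of Flg was lost without bitransgenic replicate 1 or replicate 2, while its log2 difference stayed at 1.95 and 2.31. In whole skin, fewer cells of a type and less RNA per cell cannot be told apart, and the part of tissue makeup in the enzyme differences was not tested.

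**Figure D1:**
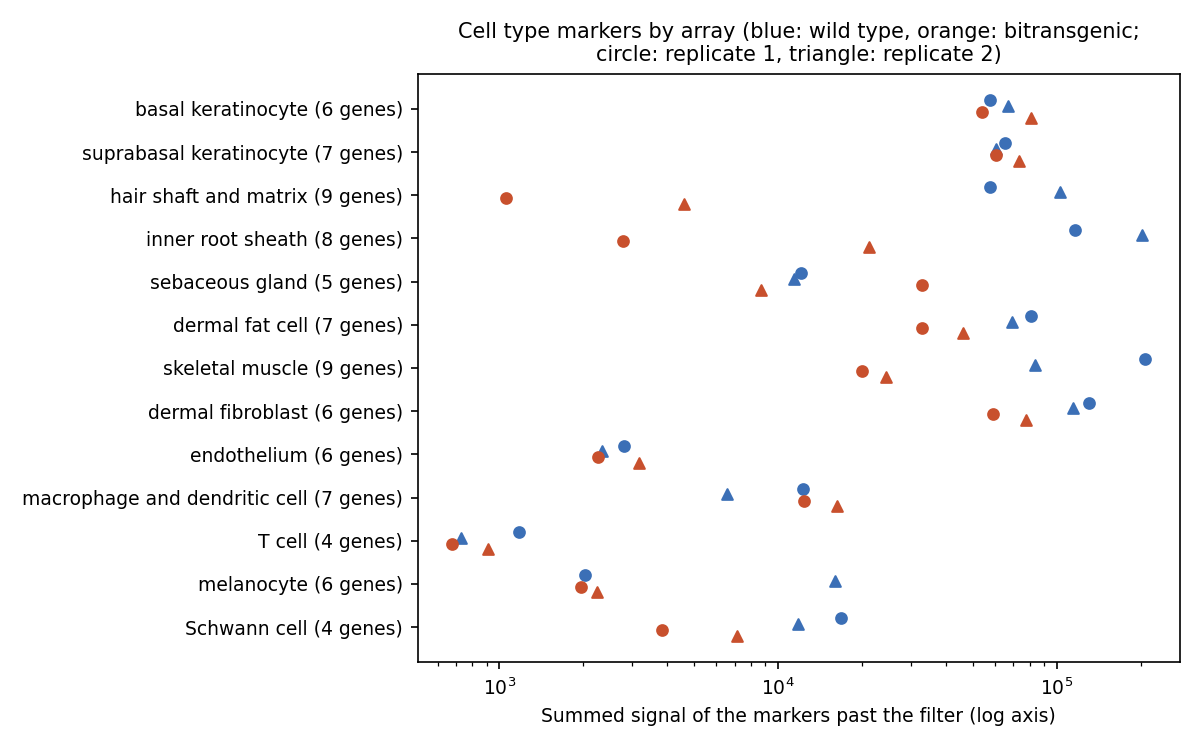
Summed signal of the cell type markers past the filter (log axis, array units) in each array, with wild type in blue, bitransgenic in orange, replicate 1 as circles and replicate 2 as triangles. Hair shaft, inner root sheath and muscle sums are lower in both bitransgenic arrays, basal keratinocyte sums lie between 53879 and 80911 in all 4 arrays, and the melanocyte sum stands out only in wild type replicate 2.

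The comparison asked which of these enzymes differ when deltaNp63alpha is overexpressed. Gstm5, Aldh3a1, Cbr3, Adh7 and Gsto1 rose by between 2.94-fold and 5.05-fold, and Adh6a and Akr1c14 fell 6.68-fold and 6.13-fold. The other 48 tested genes did not pass. Of the 55, 5 were thus called higher, where 0.750% of all 13070 genes were, and 2 called lower, where 1.58% were. Each test was limma's moderated test on log2(signal + 16), with Benjamini-Hochberg adjustment over all genes and a threshold of 0.05, and differences are bitransgenic minus wild type on that scale, with standard errors (SE) from the fit. The pseudocount of 16 pulls the folds of dim genes toward none. The counts moved with single arrays. Leaving out wild type replicate 1 gave 3 higher and 3 lower, and leaving out wild type replicate 2 gave 6 and 5. Leaving out either bitransgenic array gave 1 and 1.

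The family moved both ways. Its differences ran from -2.74 to 2.34, with 28 positive and 27 negative values and a median of 0.011, against 0.0053 over all genes. The median size of the difference regardless of sign was 0.49, against 0.34 over all genes. An unadjusted p under 0.05 was found for 18 of the 55 genes and for 16.7% of all genes. Both bitransgenic arrays lay above both wild type arrays for 17 of the 55 genes and below them for 14, against 23.9% and 24.9% of all genes, and in the other 24 the groups overlapped. For 12 genes the 95% interval of the difference lay within 2-fold either way, which held for 35.8% of all genes. These 12 were Akr1a1, Akr1c18, Aldh1a3, Aldh2, Aldh3a2, Aldh16a1, Aldh18a1, Cbr2, Cbr4, Gstm7, Gstp1 and Mgst1. For the other uncalled genes the intervals reach past 2-fold, so a miss of the threshold does not show that they were alike in both genotypes.

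**Figure D2:**
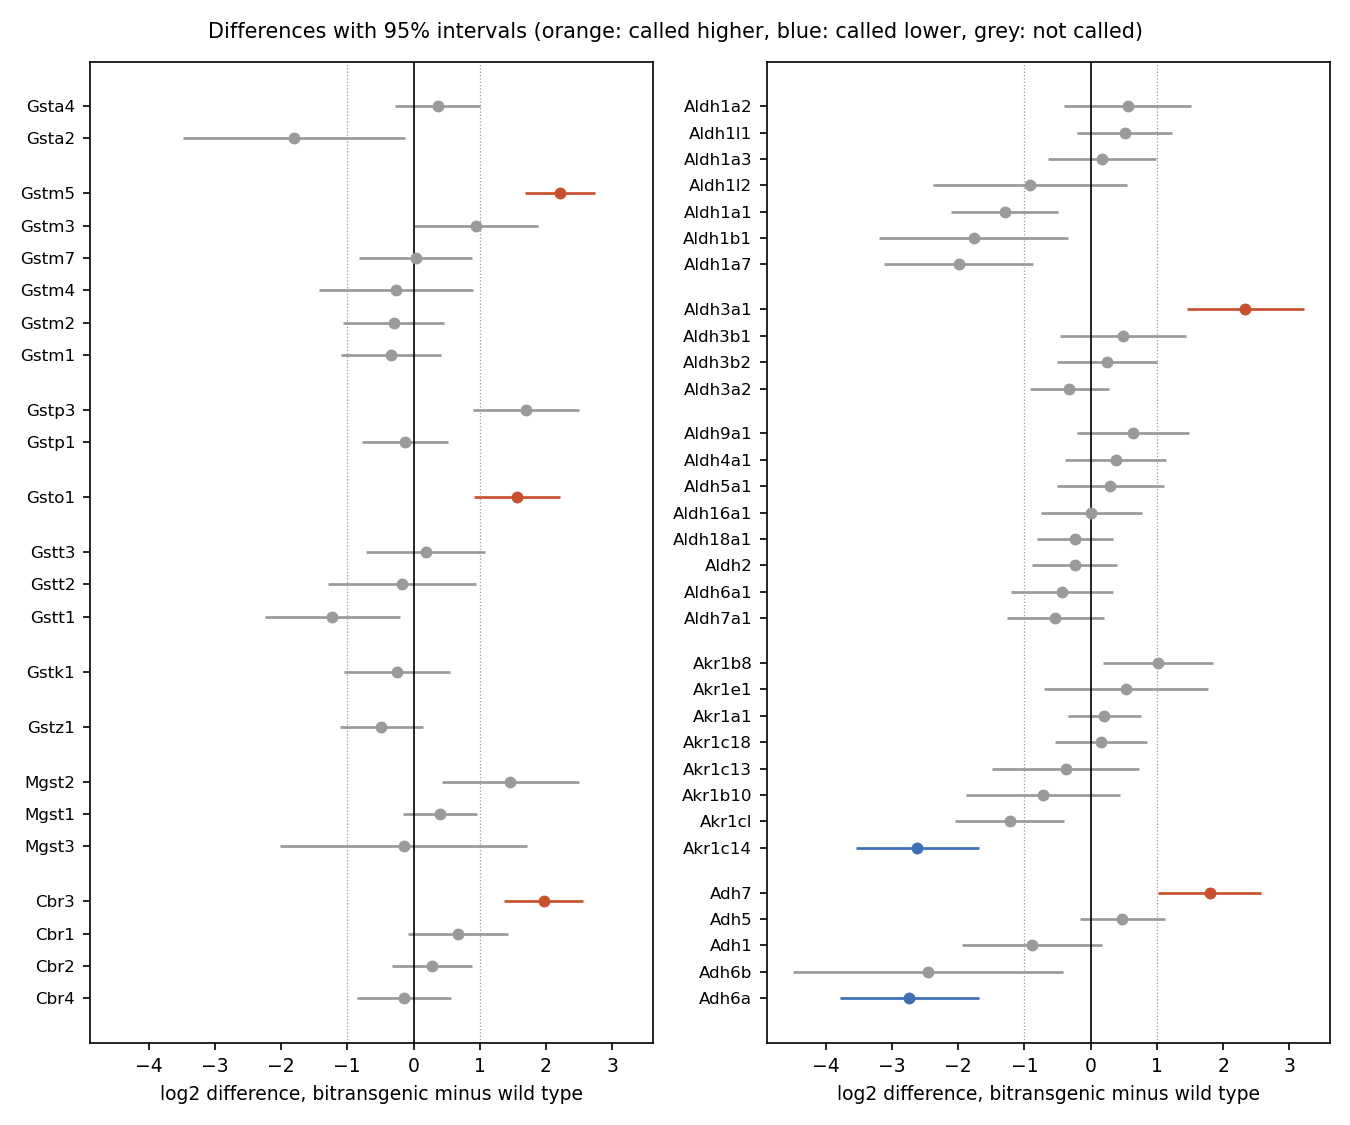
Log2 difference of the 55 tested genes, bitransgenic minus wild type, by enzyme class, with 95% intervals of limma's fit and dotted lines at a 2-fold difference. Called genes stand at both ends, from -2.74 for Adh6a to 2.34 for Aldh3a1, and most classes hold values on both sides of 0.

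Among the glutathione transferases the mu-class gene Gstm5 stood farthest from its own replicate spread. Its signal was 4549 and 4413 in the wild type arrays against 20143 and 21541 in the bitransgenic arrays. The arrays of each genotype nearly coincided and the groups were far apart, a 4.64-fold rise (log2 difference 2.21 ± 0.22, SE; adjusted p = 0.00935). This was 1 of 2 probe sets called when every probe set was fitted by itself (adjusted p = 0.0213), and Cbr3 was the other (0.0376), out of 79 family probe sets past the filter. Of all 27022 probe sets in that fit, 0.762% were called.

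Gsto1, the omega-class transferase that acts as a thiol transferase and reduces dehydroascorbate, read 1146 and 1655 in wild type against 3860 and 4322 in bitransgenic skin. Both bitransgenic values exceeded both wild type values, and the gene rose 2.94-fold (1.56 ± 0.27; adjusted p = 0.0442). A second probe set of Gsto1 read 869 and 1651 against 3505 and 3465, with a difference of 1.53. The call was lost without any of 3 arrays in turn, wild type replicate 1 (adjusted p = 0.0515), bitransgenic replicate 1 (0.184) or bitransgenic replicate 2 (0.202), and with the mean of both probe sets (0.0729), no filter (0.0619) or no intensity trend (0.0803). Gsto2 lay below the filter, with no signal above 54.3.

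The pi class divided between a bright and a dim gene. Gstp1, whose product is the common transferase of epithelia, read 8721 and 5941 in wild type against 6222 and 6903 in bitransgenic skin, so the groups overlapped, with a difference of -0.14 (95% interval -0.78 to 0.51) that turned to 0.14 without wild type replicate 1. Gstp3, a neighbouring gene of the same class, read 99.1 and 129 against 373 and 434. The groups were well apart for Gstp3, with a difference of 1.69 ± 0.33, but it missed the threshold (adjusted p = 0.0611), passed without wild type replicate 2 (0.0292) and did not without wild type replicate 1 (0.0729), bitransgenic replicate 1 (0.258) or replicate 2 (0.282).

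The membrane-bound transferases of the endoplasmic reticulum read higher in bitransgenic skin for 2 of 3 genes, and none was called. Mgst1, which also acts as a peroxidase, read 13544 and 14803 against 20065 and 17397, without overlap but with an interval of -0.16 to 0.96 that excludes 2-fold. Mgst2, which can also make leukotriene C, read 650 and 485 against 2387 and 1031, a difference of 1.46 ± 0.43 (adjusted p = 0.153). Its high value lay in bitransgenic replicate 1, the array in which 5 sebaceous gland markers also summed to 32986, against 8683 to 12049 in the other 3 arrays. Whether sebaceous gland content had a part in the Mgst2 value was not tested. Mgst3 spread more between the wild type arrays, 929 and 5600, than between the genotypes, with 1617 and 2633 in bitransgenic skin.

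None of the alpha and theta genes was called. Gsta2 read 1016 and 331 in wild type against 286 and 81.4 in bitransgenic skin. In both genotypes replicate 1 was the higher array, and the difference was -1.80 ± 0.70 (adjusted p = 0.266). Gsta4, which conjugates the lipid peroxidation product hydroxynonenal, went the other way, with 631 and 571 against 828 and 727 (0.36 ± 0.27). Gstt1 read 521 and 320 against 225 and 121, without overlap (-1.22 ± 0.42; adjusted p = 0.217), while Gstt3 read 218 and 275 against 364 and 216, with bitransgenic replicate 2 at the level of the lower wild type array.

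The 2 remaining soluble classes have a single gene each. Gstk1, the transferase of mitochondria and peroxisomes, read 1483 and 2728 against 1632 and 1759, with both bitransgenic arrays inside the wild type range. Gstz1, which isomerises maleylacetoacetate in the breakdown of tyrosine, read 944 and 850 against 605 and 667, lower without overlap (-0.49 ± 0.26; adjusted p = 0.425).

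**Figure D3:**
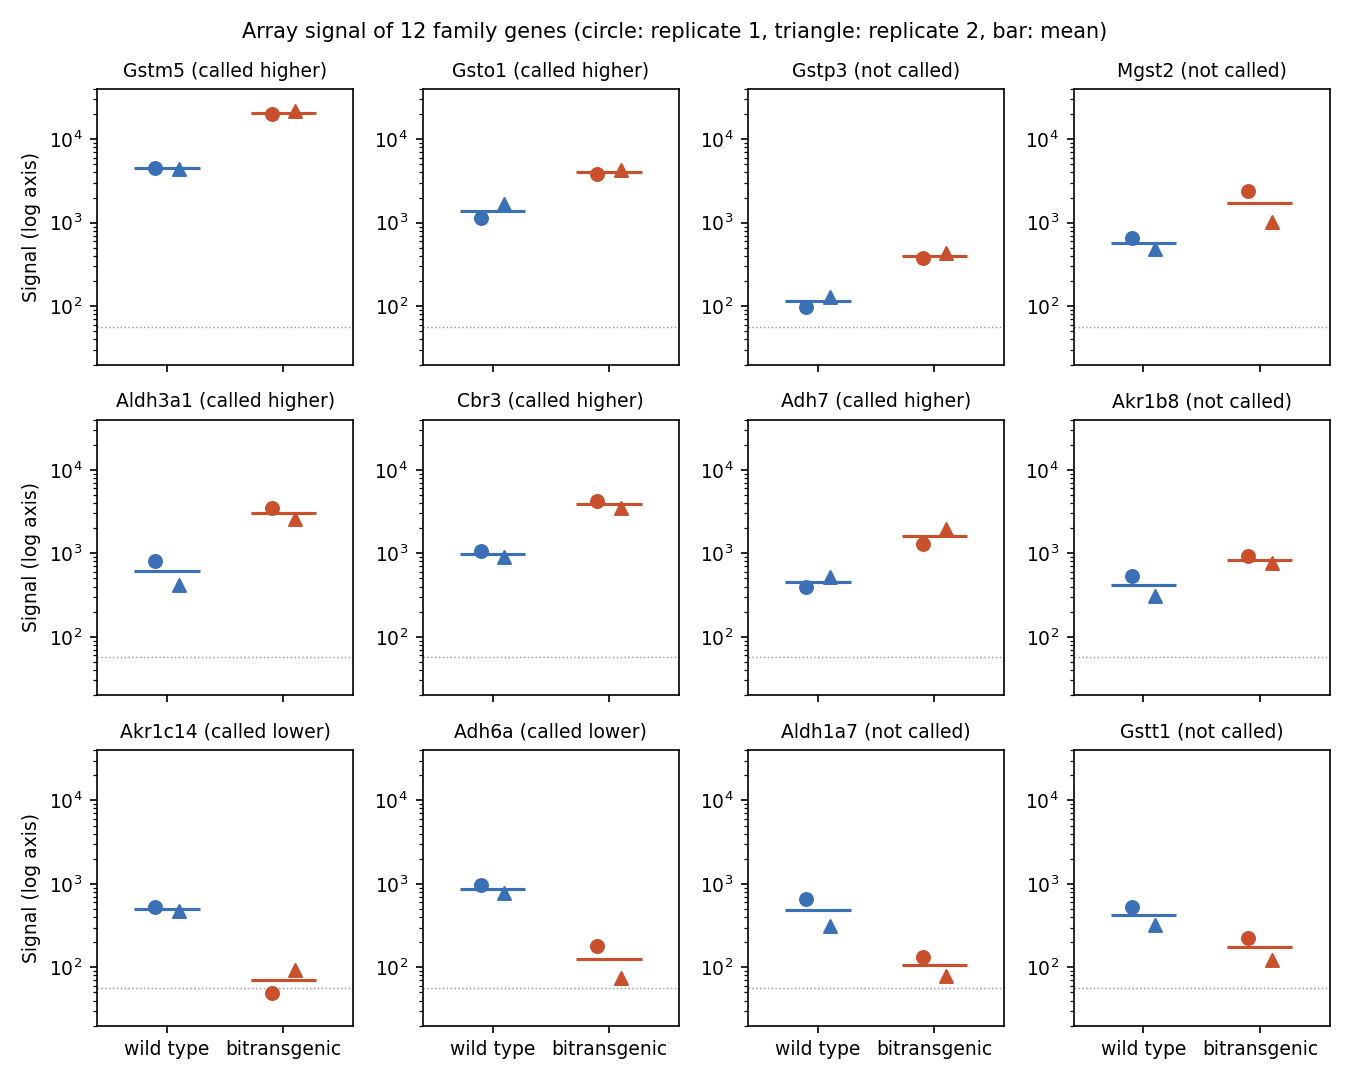
Array signal (log axis) of 12 family genes in each of the 4 arrays, with wild type in blue, bitransgenic in orange, circles for replicate 1, triangles for replicate 2, bars for group means and a dotted line at the filter's signal of 57.0. The groups do not overlap in any of the 12 panels, but only 7 of the genes were called, and bitransgenic replicate 1 of Akr1c14 lies below the filter line. The 12 genes were picked, so the panels show no share of the family. In 24 of the 55 tested genes the groups overlapped.

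Among 19 tested aldehyde dehydrogenases 1 rose and none fell, where 0.75% of all genes were called higher and 1.58% lower. Aldh3a1, known as an abundant protein of the cornea that oxidises lipid-derived aldehydes, read 807 and 413 in wild type against 3441 and 2588 in bitransgenic skin. The groups lay far apart although the wild type arrays differed, and the rise was 5.05-fold (2.34 ± 0.37; adjusted p = 0.0343). The call was lost without bitransgenic replicate 1 (0.169) or replicate 2 (0.0802), with no filter (0.0509) and with no intensity trend (0.0583). Aldh3a2, the fatty aldehyde dehydrogenase whose loss in humans causes a scaling skin disease, lies next to Aldh3a1 in the RefSeq gene order. It read 1666 and 2135 against 1522 and 1491, lower without overlap, and its interval of -0.92 to 0.28 excludes a 2-fold rise or fall. Aldh3b2, a relative found on lipid droplets, read 2157 and 2734 against 3721 and 2246, so the groups overlapped.

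The family 1 aldehyde dehydrogenases, which include the enzymes that make retinoic acid from retinaldehyde, had 3 positive and 4 negative values and no call. Aldh1a1 read 1061 and 640 in wild type against 320 and 330 in bitransgenic skin, a difference of -1.30 ± 0.34 (adjusted p = 0.118; 0.0266 without wild type replicate 2, and 0.222 to 0.453 without each other array). Its neighbour and close relative Aldh1a7 read 667 and 311 against 133 and 78.7, a difference of -1.99 ± 0.47 (adjusted p = 0.0960; 0.0169 without wild type replicate 2, and 0.161 to 0.331 without each other array). For both genes the bitransgenic arrays lay below both wild type arrays. The same held for Aldh1b1, which read 118 and 151 against 8.9 and 61.9 (-1.77 ± 0.59; adjusted p = 0.202). Its signal in bitransgenic replicate 1 lay below the filter. Aldh1a2 and Aldh1a3 did not show this pattern. Aldh1a2 read 351 and 458 against 419 and 846, and Aldh1a3 read 300 and 300 against 272 and 421, each with overlap. The difference between Aldh1a1 and Aldh1a2 or Aldh1a3 was not tested.

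The remaining 8 aldehyde dehydrogenases, which serve amino acid, carnitine and acetaldehyde metabolism in mitochondria and cytosol, spanned only -0.53 to 0.64. Aldh9a1, of carnitine synthesis, read 1372 and 2558 against 3352 and 2554, and Aldh7a1, of lysine breakdown, read 879 and 628 against 455 and 570. Neither was called, with adjusted p = 0.440 and 0.459 in limma's fit.

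Cbr3, a carbonyl reductase that acts on quinones and ketones, read 1060 and 890 in wild type against 4221 and 3483 in bitransgenic skin. Replicates differed little and the groups lay far apart, a 3.90-fold rise (1.96 ± 0.25; adjusted p = 0.0175). The call was lost without bitransgenic replicate 1 (0.123) or replicate 2 (0.0627). Cbr1, the better known enzyme of this kind and its neighbour on the chromosome, read 912 and 1090 against 2046 and 1247, higher without overlap but not called (0.67 ± 0.31; adjusted p = 0.359). The intervals were -0.085 to 1.43 for Cbr1 and 1.37 to 2.56 for Cbr3, which overlap slightly, and the difference between both genes was not tested. Cbr2 read 1949 and 1917 against 2044 and 2689, with an interval of -0.32 to 0.88.

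Of 8 tested aldo-keto reductases, 1 was called lower, where 1.58% of all genes were. This was Akr1c14, which acts on hydroxyl groups of steroids. It read 532 and 469 in wild type against 48.7 and 93.4 in bitransgenic skin, a 6.13-fold fall (-2.62 ± 0.39; adjusted p = 0.0281). The bitransgenic signals straddle the filter's 57.0, and a pseudocount of 1 gave a log2 difference of -2.87, one of 64 a difference of -2.08. The call was lost without bitransgenic replicate 1 (0.136) and with no filter (0.0509). Akr1cl read 206 and 255 against 92.8 and 85.6, also lower without overlap (-1.22 ± 0.34; adjusted p = 0.138). Akr1b8, a relative of aldose reductase first known as induced by fibroblast growth factor, read 536 and 308 against 919 and 765, with a difference of 1.02 ± 0.35 (adjusted p = 0.213). Akr1a1, the general aldehyde reductase that also serves vitamin C synthesis in mice, read 18788 and 17055 against 20071 and 21228, with an interval of -0.35 to 0.76.

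The alcohol dehydrogenases held calls in both directions. Adh7, the retinol-active enzyme of epithelia, read 389 and 514 in wild type against 1278 and 1978 in bitransgenic skin, a 3.47-fold rise (1.79 ± 0.32; adjusted p = 0.0484). Its second probe set read 292 and 464 against 1433 and 1322, with a difference of 1.86. The groups did not overlap in either probe set. This call was the closest to the threshold, and was lost without wild type replicate 1 (0.0526), bitransgenic replicate 1 (0.118) or replicate 2 (0.249), and with a pseudocount of 1 (0.0512) or 64 (0.0504), no filter (0.0684), no intensity trend (0.0720) or no suffixed probe sets (0.0503). It was kept in 7 of 15 alternatives.

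Adh6a read 966 and 783 in wild type against 179 and 74.1 in bitransgenic skin, a 6.68-fold fall (-2.74 ± 0.44; adjusted p = 0.0347). The call was lost without bitransgenic replicate 2, the lower of the bitransgenic arrays (log2 difference -2.18), and with no filter (0.0535). Adh6b, a close relative, read 594 and 3267 against 429 and 133. It was lower without overlap, but the wild type arrays differed by 2.43 and the difference of -2.46 ± 0.85 did not pass (adjusted p = 0.215). Adh6b passed with a block by sex-linked signal (0.0129) and without wild type replicate 1 (-3.67; 0.0166), and was -1.25 without wild type replicate 2 (0.280). It read 594 against 133 in the arrays of high Eif2s3y and 3267 against 429 in those of high Xist. Adh1, the classical alcohol dehydrogenase, read 2029 and 1944 against 1714 and 664, and Adh5, which breaks down nitrosoglutathione and the formaldehyde adduct of glutathione, read 3359 and 2442 against 4459 and 3585 (0.48 ± 0.27; adjusted p = 0.447).

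Neighbouring family genes formed 13 runs of 47 genes, counted in the RefSeq gene order over protein-coding genes. Some of the 47 have no probe set of their own, and other members lie outside these runs. In the Gstm run, in chromosome order, Gstm5 had a difference of 2.21, Gstm7 of 0.032, Gstm3 of 0.94, Gstm2 of -0.30, Gstm1 of -0.34 and Gstm4 of -0.26, and Gstm6 lay below the filter. None of the intervals of the other 5 tested Gstm genes, of which the highest upper bound was 1.87 for Gstm3, reached the value of Gstm5. Several probe sets of Gstm1 and Gstm3 have the suffix _x_at or _s_at and can read close relatives, which the probe set of Gstm5 has not. In the Adh run the called rise of Adh7 (1.79) and the called fall of Adh6a (-2.74) lie on both sides of Adh1 (-0.88), and Adh6b (-2.46), dim Adh4 and Adh5 (0.48) follow. In the run of Akr1c genes on chromosome 13, Akr1c14 fell and its neighbours Akr1c18 and Akr1c13 had differences of 0.16 and -0.38, while 5 genes were dim.

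**Figure D4:**
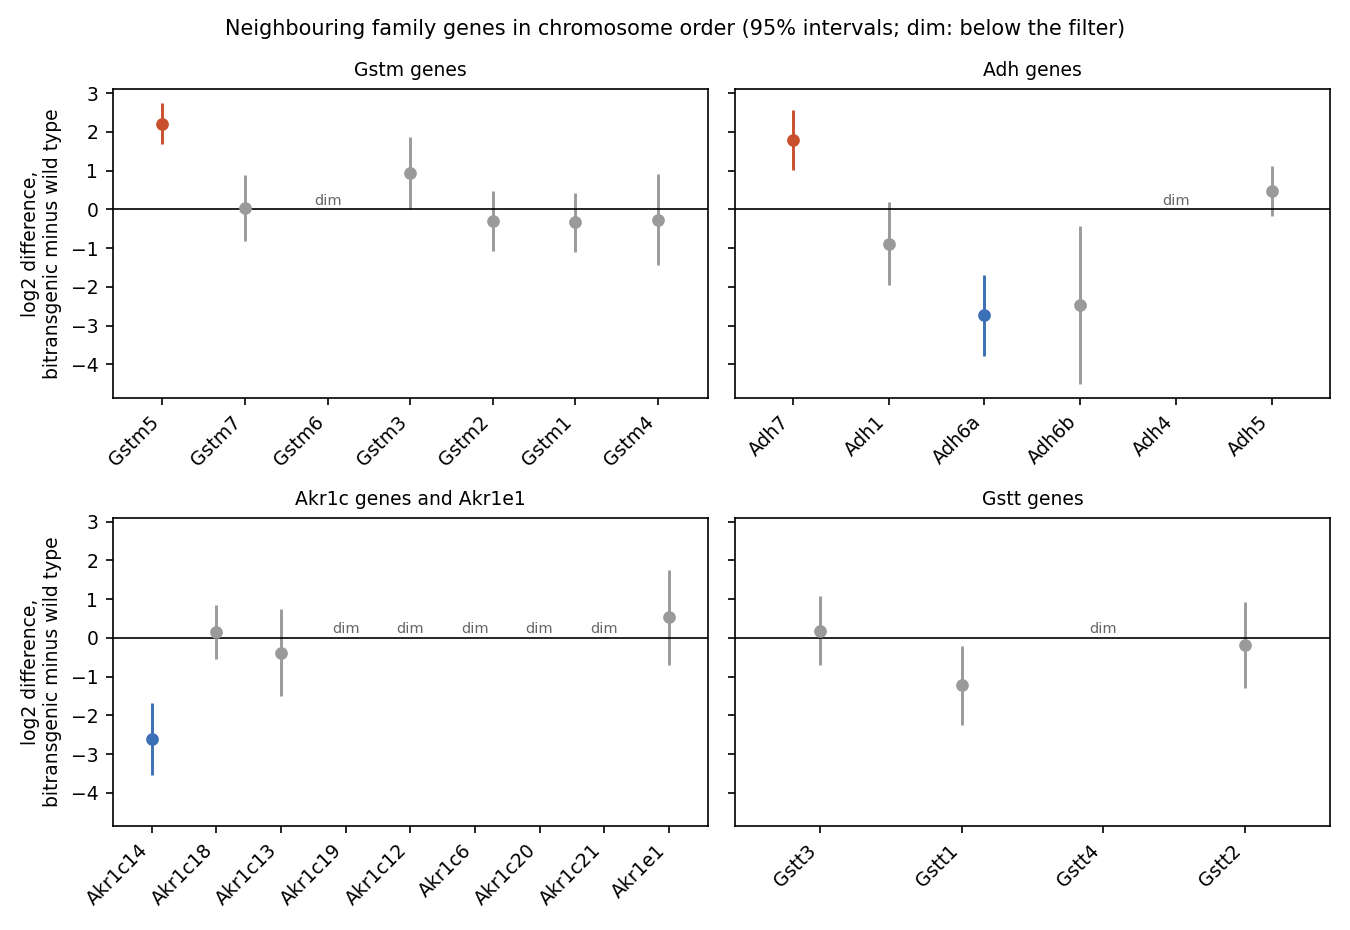
Log2 difference, bitransgenic minus wild type, with 95% intervals, of family genes that neighbour each other, in chromosome order, for the Gstm, Adh, Akr1c and Gstt runs (dim marks genes below the filter). Called genes sit beside uncalled ones in the first 3 panels, as Gstm5 at 2.21 beside Gstm7 at 0.032, and the Gstt run holds no call.

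In some members the arrays of 1 genotype differed as much as the genotypes did. The wild type arrays were more than 2-fold apart in 8 of the 55 genes (14.5%, against 12.1% of all genes), namely Adh6b, Akr1b10, Akr1e1, Aldh1a7, Aldh1l2, Gsta2, Gstt2 and Mgst3. None of these was called, and the test, which divides by the spread between replicates, makes a call less likely there. Mgst3 and Adh6b were each over 5 times as bright in wild type replicate 2 as in replicate 1. The 6 melanocyte markers had the same array out of line, with a summed signal of 15996 in wild type replicate 2 against 2027, 1970 and 2236 in wild type replicate 1 and the bitransgenic arrays, and whether they share a source with Mgst3 and Adh6b was not tested. The bitransgenic arrays were more than 2-fold apart in 6 genes (10.9%, against 6.26% of all genes), namely Adh1, Adh6a, Adh6b, Aldh1b1, Gsta2 and Mgst2.

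**Figure D5:**
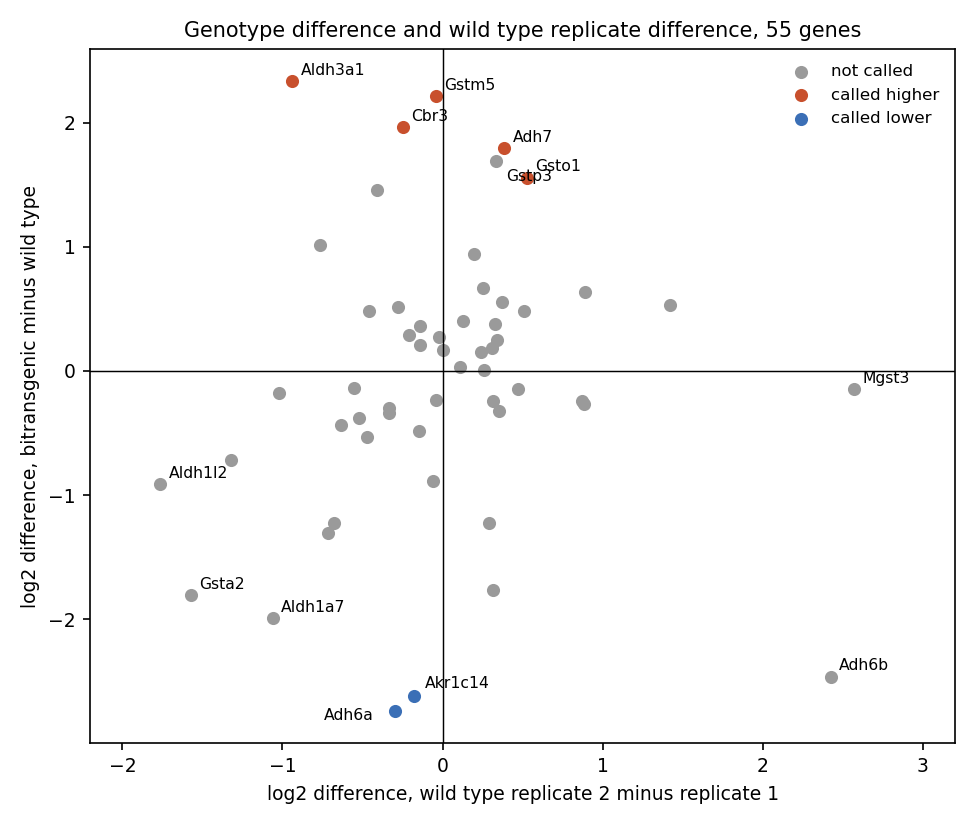
Log2 difference between the genotypes (vertical axis) against the log2 difference between the wild type arrays (horizontal axis) for the 55 tested genes, with called genes in colour. The axes share the wild type values. Called genes lie between -0.94 (Aldh3a1) and 0.52 (Gsto1) on the horizontal axis, while Mgst3 (2.57) and Adh6b (2.43) lie far to the right. The test divides by the spread between replicates, so a call is less likely where the wild type arrays differ.

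The 13 genes below the filter were Adh4, Adh6-ps1, Akr1c6, Akr1c12, Akr1c19, Akr1c20, Akr1c21, Akr1d1, Aldh8a1, Gsta3, Gstm6, Gsto2 and Gstt4. Their 17 probe sets had no signal above 78.1 on any array, and no comparison was made for them. Where a gene had several probe sets past the filter, which was so for 11 genes, those of Adh7, Akr1a1, Aldh1a3, Aldh9a1, Aldh16a1 and Gsto1 had differences of 1 sign. Those of Aldh2, Aldh18a1, Gstm1 and Gstm7 differed in sign with no value beyond 0.62 either way. For Akr1b10 the gap was wider. The brighter read 503 and 192 in wild type against 168 and 200 in bitransgenic skin (-0.72) and the dimmer 60.4 and 104 against 194 and 163 (1.01), so its direction is not settled. The 3 probe sets that name a pair of family genes were not called. That shared by Akr1c12 and Akr1c13 had a difference of 0.53, and those shared by Aldh3b2 and Aldh3b3 of -0.22 and -0.11.

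Genes that supply, spend or restore glutathione were read from a list of 26, of which 21 were tested. None rose and 1 fell, with a median of -0.010, where 0.75% of all genes were called higher and 1.58% lower. The gene that fell was Chac1, which breaks glutathione down inside the cell, with 1879 and 1867 in wild type against 374 and 423 in bitransgenic skin, a 4.57-fold fall (-2.19 ± 0.25; adjusted p = 0.0143, or 0.0829 and 0.0549 without bitransgenic replicate 1 or 2). The enzymes of glutathione synthesis had differences of 0.22 for Gclc, 0.77 for Gclm and 0.36 for Gss, and none passed. Of 15 glutathione peroxidases, peroxiredoxins and thioredoxin genes none passed in limma's fit, and 5 had an unadjusted p under 0.05, which 16.7% of all genes had.

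Of 23 tested genes of NRF2, its regulators and other reported targets none passed, 15 had positive and 8 negative values, 3 had an unadjusted p under 0.05 (16.7% of all genes), and the median was 0.41. Both bitransgenic arrays lay above both wild type arrays for 12 of the 23 and below them for 3, where all genes had 23.9% and 24.9%. The quinone reductase Nqo1, often used to read NRF2 activity, read 212 and 141 against 393 and 421 (1.16 ± 0.34; adjusted p = 0.151). The haem oxygenase Hmox1 read 709 and 1538 against 542 and 811, and the thioredoxin reductase Txnrd1 read 1825 and 3135 against 1389 and 1457, both with negative differences of -0.64 and -0.74. Nfe2l2 itself, which codes for NRF2, had a difference of 0.44. These and the other non-family genes of this paragraph were named after their values were seen.

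Beside the family's retinoid enzymes, 1 of 25 retinoid genes rose and none fell, with a median of 0.16. For this and the next lists, 0.75% of all genes were called higher and 1.58% lower. Rdh12, a retinaldehyde reductase known from photoreceptors, read 1219 and 2032 in wild type against 5472 and 6166 in bitransgenic skin, a 3.66-fold rise (1.87 ± 0.30; adjusted p = 0.0358, or 0.137 and 0.141 without bitransgenic replicate 1 or 2). Its call was also lost with no filter (0.0535), the mean of probe sets (0.0596) or no intensity trend (0.0674). Of 23 quinone, aldehyde and short-chain oxidoreductases 1 rose, Hsd17b2, which inactivates oestradiol and testosterone, with 230 and 565 against 5784 and 2340. Its rise was 9.77-fold (3.29 ± 0.55; adjusted p = 0.0408). Without bitransgenic replicate 1 the difference was 2.64 and not called (0.139), and without wild type replicate 1 or 2 or bitransgenic replicate 2 it was 2.67, 3.91 and 3.94, all called. The call was also lost with no filter (0.0604), the mean of probe sets (0.0533) or no intensity trend (0.0641). Of 21 cytochrome P450 and related genes Cyp51, of sterol synthesis, rose 3.03-fold and Cyp2f2, known from naphthalene activation in the lung, fell 3.42-fold (adjusted p = 0.0371 and 0.0357 in limma's fit). Without bitransgenic replicate 1 or 2 the adjusted p was 0.187 and 0.179 for Cyp2f2 and 0.226 and 0.0754 for Cyp51. With no filter it was 0.0535 for both, and Cyp51 was also lost with the mean of probe sets (0.0696) or no intensity trend (0.0716). Of 12 other conjugation and export genes none passed in limma's fit, and 4 had an unadjusted p under 0.05 (16.7% of all genes).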

How the data were processed

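Labelled RNA of 4 skin samples was read on single-colour Affymetrix arrays. The deposited values are probe set signals, an intensity on a linear scale. Per the submitters' processing notes MAS5 and affy were used, and their versions were not given in the sources used here. Deposited arrays shared a mean of 500 once 2% of probe sets at each end were dropped, and so were on 1 scale. Gene symbols came from the platform annotation, and all 68 family genes matched RefSeq by Entrez identifier.

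Signals were taken as log2(signal + 16). Genes were kept when the mean over 4 arrays reached the 40th percentile of non-control probe sets (log2 6.19, signal 57.0), and the brightest probe set stood for a gene. The genotype test was that of limma 3.58.1 under R 4.3.3 (lmFit and trended eBayes; 2 residual and 4.45 prior degrees of freedom), over 13070 genes and, separately, 27022 probe sets. On simulated data only the fit's mean estimates were checked against the planted differences, and its calls were not. The family, gene lists and marker lists were chosen with earlier results of these data known. Named by rule were called genes, in each class the 2 genes with the smallest p and the brightest, and the smallest p of each pathway or marker list with a call. Alternatives covered the pseudocount, filter, scaling, probe set choice, trend, blocks and each array left out. Further genes were named after their values were seen, to complete a class or run. P-values rest on the spread between animals of a genotype, moderated by the variance of other genes of like signal. The number of arrays limits the precision.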

Additional observations from a re-analysis of the deposited data

How the results depend on the processing

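With 2 arrays a group, the calls rest on few values, and the dimmest called genes, Akr1c14 and Adh6a, lie near background in bitransgenic skin. Gstm5 kept its call under each of the 15 alternatives (log2 difference 2.16 to 2.29, adjusted p 0.00248 to 0.0414 in limma's fit). Family genes called higher were 2 with no filter, where more genes are tested, and 2 without the intensity trend, against 5. Those called lower were 0 with no filter, against 2. Family probe sets called were 1 with no filter and 0 without the trend, against 2, and were not counted for the mean of probe sets. Over all genes, no filter gave 52 higher and 132 lower, against 98 and 206, and a block by sex-linked signal gave 348 lower. The family's median, 0.011, was 0.16 with a filter at the 60th percentile, 0.12 with quantile normalization, 0.089 with equal array medians, 0.15 with the mean of probe sets and -0.096 without probe sets of suffix _x_at, _s_at or _a_at. Equal medians moved the median of all genes by 0.0782, the most of any scaling. Equal medians shift every gene of an array alike, so the family's median moved with that of all genes. The 60th percentile filter and the suffix rule also changed which members were tested, 47 and 46 against 55. Other causes of these shifts were not tested.

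Leaving out 1 array at a time gave 1 to 6 family genes higher, 1 to 5 lower, a family median of -0.021 to 0.17 and 1 to 13 family probe sets called, and over all genes 22 to 314 higher and 96 to 635 lower. The log2 difference ran from -0.11 to 0.61 for Aldh3b2, from -0.68 to 0.19 for Gstk1, from -0.41 to 0.14 for Gstp1 and from -0.17 to 0.54 for Gstt3, so these directions rest on 1 array. Over the genes named by rule, Adh6b and Cyp51 and all alternatives, 514 values kept direction and side of the threshold, 47 lost the call, 9 gained one and 4 turned.

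Replicate numbers were not taken as pairing, since no label gives a shared litter and there are only 2 pairs (correlation of same-numbered deviations 0.211). Spike-in control probe sets, however, were alike in same-numbered arrays. Their mean signal was 1528 in wild type and 1598 in bitransgenic replicate 1, against 328 and 465 in replicate 2. Whether same-numbered arrays were processed together was not tested. With the replicate block, 7 family genes were higher and 4 lower, 12 family probe sets were called, and 207 genes were higher and 438 lower. Added to the 7 called genes were Gstp3 (adjusted p = 0.0398), Mgst2 (0.0463), Aldh1a7 (0.0276) and Gsta2 (0.0277) in limma's fit.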

Other observations

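Among genes beside the family, chosen after their values were seen, Crabp2, which carries retinoic acid, read 3096 and 2646 in wild type against 10964 and 6820 in bitransgenic skin (log2 difference 1.59; adjusted p = 0.0538 in limma's fit). Abcc4, an exporter of conjugates and other organic anions, read 711 and 436 against 1650 and 1722 (1.57; 0.0616), and Hagh, which hydrolyses a glutathione thioester of the glyoxalase pathway, read 2088 and 1640 against 4901 and 3552 (1.17; 0.0952). None of the 3 passed the threshold, and in each both bitransgenic arrays lay above both wild type arrays.

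Of 7 macrophage and dendritic cell markers 6 had positive differences, with a median of 0.63 and none called in limma's fit (3 at an unadjusted p under 0.05, which 16.7% of all genes had). Their summed signal was 12259 and 6565 in wild type against 12370 and 16270 in bitransgenic skin, so the groups were apart, by little on 1 side. The 7 suprabasal keratinocyte markers summed to 65091 and 60603 in wild type against 60805 and 73379 in bitransgenic skin, with overlap.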
